A study of Mus musculus with 12 samples.

Results

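The 47 genes described here encode factors that build ribosomes: RNA polymerase I subunits, the small-subunit processome, the box C/D and H/ACA particles, large-subunit assembly factors and nucleolar proteins that act at several steps. They were taken from the deposited count table by gene symbol and not by a cut on their measured values. The list was, however, drawn up with earlier results of these data known. All 47 of 47 were found among the 27179 genes of the count table. The cells are T-cell acute lymphoblastic leukemia cells of ALL101, a single primary mouse leukemia that carries Vav-tTA and TRE-GFP-shIkaros. In this system the tetracycline-off transactivator, driven by the blood-cell Vav promoter, turns on a GFP-linked hairpin against Ikaros, the lymphoid transcription factor encoded by Ikzf1. Leukemic recipient mice received doxycycline (Dox) for 3 days (3 mice, GFPmid cells), or stayed untreated (3 mice, GFPhigh cells). Per the labels, Dox shuts off the hairpin so that endogenous Ikaros returns, and all groups carry the leukemia and the hairpin. The labels give no strain, age or sex. Since every Dox sample is GFPmid and every untreated sample GFPhigh, the drug and the sort gate cannot be told apart, and no hairpin-free leukemia given Dox was analysed here. The comparison asks how the leukemia transcriptome changes when Ikaros is restored.

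The counts of the 2 sequencing runs of each RNA were summed, and n counts mice. The summed libraries held 33899095 to 44949303 counts in Dox mice and 29904744 to 33063390 counts in untreated mice, and no member had fewer than 524 counts in any mouse. Levels are CPM (counts scaled to the TMM-adjusted size of the library), and a change is called at an adjusted p under 0.05 in edgeR's quasi-likelihood test over 13134 genes. Log2 fold changes are Dox minus untreated. Values after ± are the SE for a log2 fold change and the SD over 3 mice for a level. Ikzf1, the hairpin's target, had 1438, 1523 and 1495 CPM in Dox mice 1, 2 and 3, against 153, 149.7 and 159 CPM in untreated mice 1, 2 and 3, which is the direction of the labels. The library name of untreated mouse 3 has INJ where the others have the GFP sort, although its labels give the same FACS isolation and the GFPhigh gate. The 8 T-cell markers, the defining Cd3 genes among them, were detected in every mouse. They summed to 6436 to 7789 CPM in Dox mice and 4982 to 5162 CPM in untreated mice. Of the 8, 4 were higher (50%, against 24.8% of all genes tested) and 1 lower (12.5%, against 25.2%). Of the B-cell genes, Pax5 was at 0 in all 6 mice, Ms4a1, Cd79a and Cd79b averaged at most 0.311 CPM in either group, and Ighm, averaging 270.3 CPM in Dox and 305 CPM in untreated mice, made up nearly all of that list. The NK-cell list summed to 0.176 to 0.276 CPM in Dox mice and 0.366 to 0.503 CPM in untreated mice. The 7 erythroid markers summed to 86.1 to 109 CPM in Dox mice, against 13.4, 7.32 and 60.9 CPM in untreated mice 1, 2 and 3. The 9 myeloid markers summed to 69.1 to 91.0 CPM in Dox mice and 26.1 to 45.8 CPM in untreated mice. Of the erythroid markers 2 rose (28.6%) and 0 fell, and of the myeloid markers 4 rose (44.4%) and 3 fell (33.3%). Both sums were higher in every Dox mouse than in every untreated mouse, and their part in the results below was not tested.

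Ribosomes are assembled in the nucleolus. RNA polymerase I transcribes the long ribosomal RNA precursor, the small-subunit processome and the snoRNA-guided particles fold, modify and cut it, and separate sets of factors then finish the small and large subunits. Growing cells, leukemia cells among them, spend much of their resources on this work, and the transcription factor Myc is known to promote it at many steps.

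All 47 genes passed the filter on low counts, and 46 fell after Dox while 0 rose. Among all 13134 genes tested, 25.2% fell and 24.8% rose. The median log2 fold change of the 47 was -0.68, equal to a level 1.602-fold lower, and the median of all genes tested was -0.0037. A log2 fold change below -0.68 was found for 10.6% of all genes tested. Only Utp3 did not pass. The 3 Dox values lay below the 3 untreated values for 47 of 47 genes, including Utp3, where 30.9% of all genes tested showed such a separation in that direction. The log2 fold changes ran from -1.28 for Polr1b to -0.17 for Utp3, with 35 genes between -0.5 and -1, 1 gene below -1 and 11 genes above -0.5. A call at 2-fold or more, reached by 5.87% of all genes tested in the direction of a fall, was made for 1 of the 47, Polr1b. Without untreated mouse 3, 46 of 47 fell. The list was drawn up with an earlier result on related genes known, so its common direction is not independent evidence. In bulk RNA, fewer cells with high levels and less RNA per cell cannot be told apart.

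**Figure D1:**
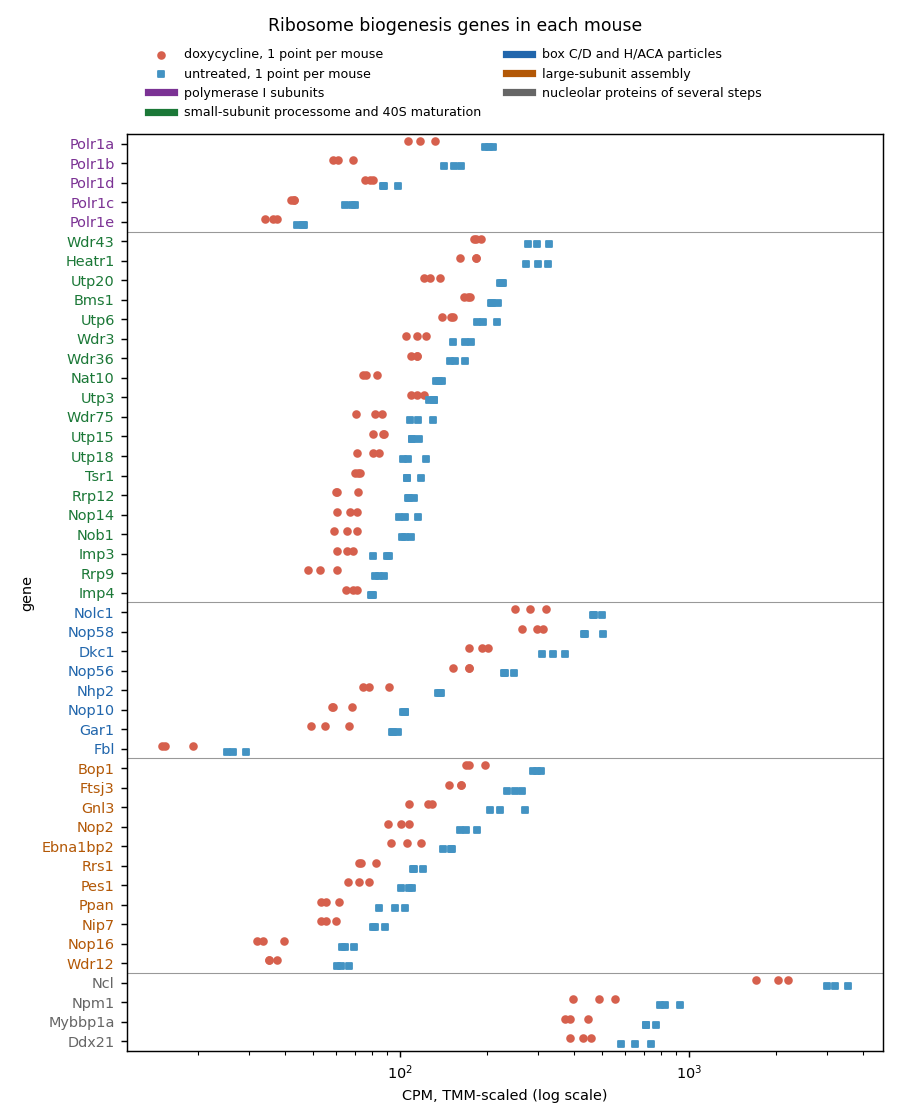
CPM of the 47 genes in each mouse (log axis), grouped and coloured by step, with Dox mice as circles and untreated mice as squares. The Dox points lie left of the untreated points for 47 of 47 genes, from Fbl near 16.6 CPM in Dox mice to Ncl near 1979 CPM.

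Per kilobase of gene, the 47 were well expressed in both groups. Their median level was 35.7 RPKM in Dox mice and 51.8 RPKM in untreated mice, against 10.6 and 10.5 RPKM for all genes tested in Dox and untreated mice. By the deposited lengths, Npm1 was the most abundant per kilobase, at 279 ± 46.7 RPKM in Dox and 495 ± 41.8 RPKM in untreated mice (SD, n = 3 each). Ncl followed at 240 ± 30.2 RPKM in Dox and 393 ± 34.0 RPKM in untreated mice. This order rests on the deposited lengths, 1718 bases for Npm1 and 8257 bases for Ncl, which were not checked. In CPM Ncl was the higher, averaging 1979 in Dox and 3248 in untreated mice, against 479 and 851 for Npm1. At the low end were Wdr12, at 10.7 ± 0.391 RPKM in Dox and 18.7 ± 0.927 RPKM in untreated mice, and Polr1e, at 12.2 ± 0.595 RPKM in Dox and 15.5 ± 0.451 RPKM in untreated mice. Fbl was at 14.3 ± 2.06 RPKM in Dox and 23.3 ± 1.87 RPKM in untreated mice, far under its particle partners Nop56 and Nop58. RefSeq names 1 pseudogene after Fbl and the treatment of reads with several matches is not given in the sources used here, so the level of Fbl is uncertain.

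The polymerase I subunits fell to unequal extents. Polr1b, which with Polr1a forms the active centre, had 58.8, 60.9 and 68.7 CPM in Dox mice 1, 2 and 3, against 163, 154 and 142 CPM in untreated mice 1, 2 and 3. The lowest untreated mouse lay 1.05 log2 units above the highest Dox mouse, the widest gap of the 47. The log2 fold change was -1.28 ± 0.08, a 2.43-fold lower level (edgeR adjusted p = 3.9e-05), and no other member fell as far. Polr1b lies on chr2:129100970-129128060 of GRCm38 (mm10). Polr1a, the catalytic subunit that holds most of the DNA cleft, had 107, 117 and 133 CPM in Dox mice, against 203, 210.2 and 197 CPM in untreated mice. Its log2 fold change was -0.78 ± 0.09 (edgeR adjusted p = 0.00028), and the groups were clearly apart.

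Polr1c and Polr1d are subunits that polymerase I shares with polymerase III. Polr1c had 42.1, 43.0 and 42.9 CPM in Dox mice, against 68.2, 69.9 and 64.8 CPM in untreated mice, and the Dox mice were nearly equal to each other. Its log2 fold change was -0.66 ± 0.07 (edgeR adjusted p = 0.00018). Polr1d had 80.4, 78.9 and 75.5 CPM in Dox mice, against 98.7, 87.7 and 87.2 CPM in untreated mice. The groups did not overlap, but the change was small, at -0.22 ± 0.07 on the log2 scale (edgeR adjusted p = 0.035). That call was lost in 7 settings: with untreated mouse 1 or 2 left out (edgeR adjusted p = 0.116 and 0.0644), with Dox mouse 1, 2 or 3 left out (0.0584, 0.0544 and 0.0867), and in run 1 or run 2 alone (0.0522 and 0.0524). Polr1e, a subunit of the polymerase-associated heterodimer that helps initiation, had 34.0, 36.4 and 37.5 CPM in Dox mice, against 46.2, 44.0 and 46.4 CPM in untreated mice. It fell by 0.34 ± 0.07 on the log2 scale (edgeR adjusted p = 0.0052).

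Ratios of counts within a library do not depend on the scaling. The log2 ratio of Polr1b to Polr1a was -0.92 ± 0.05 in Dox mice and -0.41 ± 0.08 in untreated mice (SD, n = 3 each), and the ratios of Polr1b to Polr1c, Polr1d and Polr1e were also lower in every Dox mouse than in every untreated mouse. The differences of mean log2 ratio were -0.50 for Polr1a, -0.62 for Polr1c, -1.07 for Polr1d and -0.94 for Polr1e. Each had an exact permutation p of 0.1, the smallest that 3 against 3 mice can give, and an adjusted p of 0.167 over 10 ratios tested. These ratios share the Polr1b counts and restate its larger fall, so they are not separate support for it. The design is too small for this test to pass 0.05.

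Other genes of the polymerase I machinery moved less uniformly. Of 10 further subunits and initiation factors, 3 fell (30%, against 25.2% of all genes tested) and 1 rose (10%, against 24.8%). The share that fell is thus near that of all genes tested, and the median log2 fold change was -0.18. Cd3eap, the heterodimer partner of Polr1e, fell by 0.72 ± 0.08 log2 units, to 23.0 ± 0.886 CPM in Dox mice against 37.9 ± 0.894 CPM in untreated mice (edgeR adjusted p = 0.00022). Rrn3, which makes the polymerase competent to initiate, fell by 0.34 ± 0.06 (edgeR adjusted p = 0.0021), and Twistnb, the stalk subunit that contacts Rrn3, by 0.31 ± 0.07 (0.0081). Ubtf, the factor that binds and opens ribosomal DNA, was at 434 ± 17.5 CPM in Dox and 457 ± 6.07 CPM in untreated mice, differing by -0.07 ± 0.06 on the log2 scale, which missed the threshold (edgeR adjusted p = 0.36). None of Taf1a, Taf1b, Taf1c and Taf1d, the promoter selectivity factor, passed either. Ttf1, the termination factor, was higher by 0.26 ± 0.08 on the log2 scale (edgeR adjusted p = 0.023), a call that was lost without Dox mouse 1 or without any of the 3 untreated mice, at 0.0614, 0.0651, 0.0517 and 0.0735.

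The 5 subunits common to polymerases I, II and III had a median log2 fold change of -0.51, with 4 lower and 0 higher. Polr2e fell by 0.65 ± 0.08 and Polr2f by 0.58 ± 0.08 on the log2 scale (edgeR adjusted p = 0.00038 and 0.00055). Of 7 subunits of polymerase II alone, 4 fell and 0 rose, with a median of -0.24, and only 1 fell without Dox mouse 1, without any 1 untreated mouse or in run 1 alone, and 2 without Dox mouse 2 or with no filter on low counts. Of 11 polymerase III subunits, 4 fell (36.4%, against 25.2% of all genes tested) and 1 rose (9.09%, against 24.8%), with a median of -0.06. Polr3e and Polr3d fell by 0.63 ± 0.07 and 0.72 ± 0.11 log2 units (edgeR adjusted p = 0.00022 for Polr3e and 0.00093 for Polr3d), whereas Polr3gl, one of a pair of alternative subunits, rose by 0.51 ± 0.13 (0.010). Whether these lists differ from the 5 polymerase I members was not tested.

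**Figure D2:**
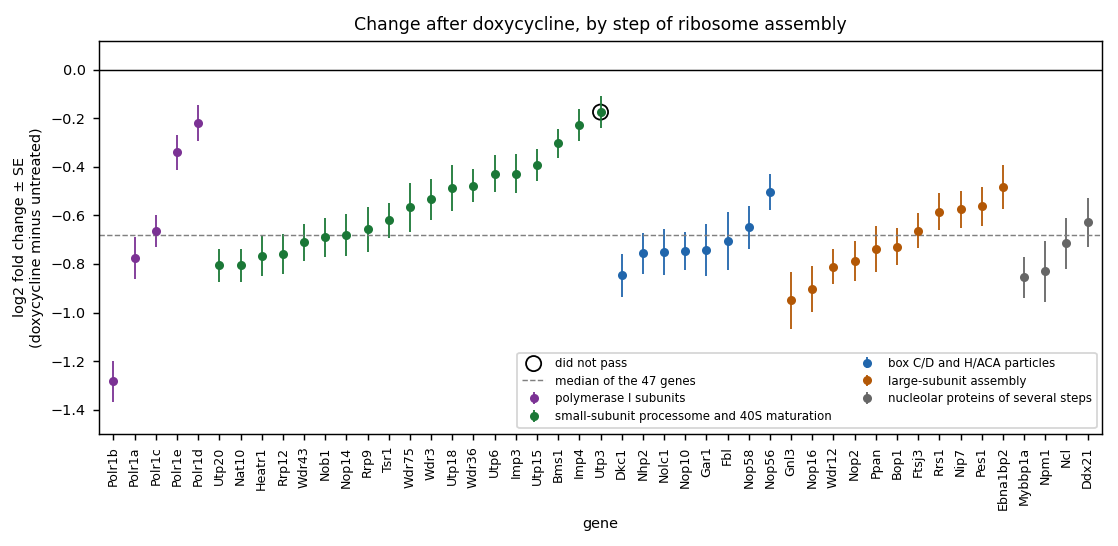
Log2 fold change (Dox minus untreated) of the 47 genes with its SE, ordered by size within each step; the dashed line is their median of -0.68 and the ring marks Utp3, which did not pass. Polr1b lies lowest at -1.28, and the smallest changes are those of Utp3, Polr1d and Imp4.

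Of the 19 genes of the small-subunit processome and of later small-subunit steps, 18 fell and 0 rose, and the median log2 fold change was -0.57. Utp20, a very long scaffold protein of the processome, had 127, 121 and 138 CPM in Dox mice, against 226, 227 and 222 CPM in untreated mice. The groups were far apart and the untreated mice nearly equal, and the log2 fold change was -0.81 ± 0.07 (edgeR adjusted p = 9.8e-05). Nat10, which acetylates cytidines of the small-subunit RNA, had 74.6, 76.4 and 83.1 CPM in Dox mice, against 137, 133 and 139.8 CPM in untreated mice. It fell by 0.81 ± 0.07 log2 units as well (edgeR adjusted p = 9.8e-05). Wdr43, a WD-repeat protein of the first processome module to join the precursor, had 183, 179.6 and 190.2 CPM in Dox mice, against 329, 299 and 277 CPM in untreated mice. Its log2 fold change was -0.71 ± 0.08 (edgeR adjusted p = 0.00024), with all Dox mice well below all untreated mice.

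Heatr1, Wdr75 and Utp15, which also belong to that first module, fell by 0.77 ± 0.08, 0.57 ± 0.10 and 0.39 ± 0.07 on the log2 scale (edgeR adjusted p = 0.00028, 0.0021 and 0.0018). Wdr3, Wdr36, Utp6 and Utp18, which form part of another processome module, fell by 0.43 to 0.53 log2 units. Rrp9, a protein of the box C/D particle that pairs with the precursor, fell by 0.66 ± 0.09. Rrp12, an export factor, Nob1, the nuclease that makes the last cut of the small-subunit RNA, and Tsr1, a late assembly factor, fell by 0.76, 0.69 and 0.62 log2 units. The GTPase gene Bms1 fell by 0.30 ± 0.06 (edgeR adjusted p = 0.0037) and the processome gene Nop14 by 0.68 ± 0.09 (0.00049).

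The smallest changes among the small-subunit genes were those of Imp3, Imp4, Bms1, Utp15 and Utp3, together with Utp6. Imp4, which with Imp3 holds the precursor against its guide RNA, had 65.1, 71.0 and 69.0 CPM in Dox mice, against 79.5, 79.8 and 81.0 CPM in untreated mice. The groups did not overlap, and Imp4 fell by 0.23 ± 0.07 on the log2 scale (edgeR adjusted p = 0.019), a call lost without Dox mouse 1 (0.0587) or untreated mouse 2 (0.0665). Utp3, a processome protein, had 114, 109 and 121 CPM in Dox mice, against 126, 131 and 131 CPM in untreated mice. Its log2 difference of -0.17 ± 0.06 did not pass (edgeR adjusted p = 0.052), although the values did not overlap. It passed in 4 of 18 other settings, including without Dox mouse 3 (0.0377).

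All 8 genes of the box C/D and H/ACA particles fell, by a median of 0.74 log2 units. These particles carry snoRNAs that direct methylation (box C/D) and pseudouridylation (H/ACA) of ribosomal RNA. Dkc1, the pseudouridine synthase, had 192, 174 and 201 CPM in Dox mice, against 372, 339 and 309 CPM in untreated mice, or -0.85 ± 0.09 on the log2 scale (edgeR adjusted p = 0.00022). Its partner Nop10 had 58.1, 58.7 and 68.1 CPM in Dox mice, against 104, 104 and 102 CPM in untreated mice, or -0.75 ± 0.08 on the log2 scale (edgeR adjusted p = 0.00023). Nhp2, another core protein, had 74.3, 78.2 and 91.5 CPM in Dox mice, against 139, 136 and 138 CPM in untreated mice, or -0.76 ± 0.09 on the log2 scale (edgeR adjusted p = 0.00030). Among these genes Nop10 and Nhp2 were nearly equal in the untreated mice and highest of the Dox group in mouse 3, and no gene had overlapping groups. Gar1, the remaining core protein, fell by 0.74 ± 0.11 (edgeR adjusted p = 0.00085).

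Proportions among the H/ACA genes overlapped between the groups. The log2 ratios of Gar1, Nhp2 and Nop10 to Dkc1 differed between Dox and untreated mice by 0.09, 0.08 and 0.09 (exact permutation p = 0.4, 0.5 and 0.3). On the box C/D side, Fbl, the methyltransferase, had 15.4, 15.01 and 19.3 CPM in Dox mice, against 25.25, 26.4 and 29.4 CPM in untreated mice. It fell by 0.70 ± 0.12 on the log2 scale (edgeR adjusted p = 0.0019). The core scaffold genes Nop56 and Nop58 fell by 0.50 ± 0.07 and 0.65 ± 0.09 (edgeR adjusted p = 0.00093 and 0.00071), and the log2 ratio of Nop56 to Nop58 was -0.81 ± 0.04 in Dox and -0.95 ± 0.06 in untreated mice (SD, n = 3 each), higher in every Dox mouse (exact permutation p = 0.1). Nolc1, a chaperone that escorts both kinds of particle, fell by 0.75 ± 0.09 (edgeR adjusted p = 0.00044).

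All 11 large-subunit assembly genes fell, by a median of 0.73 log2 units. Wdr12, Bop1 and Pes1 form a trimer needed to process the large-subunit RNA. Wdr12 had 35.1, 37.5 and 35.3 CPM in Dox mice, against 66.5, 62.5 and 60.4 CPM in untreated mice, or -0.81 ± 0.07 on the log2 scale (edgeR adjusted p = 0.00011). Bop1 had 174, 169.5 and 197 CPM in Dox mice, against 307, 299 and 289 CPM in untreated mice, or -0.73 ± 0.08 on the log2 scale (edgeR adjusted p = 0.00021). Pes1 fell by 0.56 ± 0.08 (edgeR adjusted p = 0.00080), and the log2 ratio of Bop1 to Pes1 was 1.32 ± 0.08 in Dox mice and 1.49 ± 0.05 in untreated mice (SD, n = 3 each), lower in every Dox mouse (exact permutation p = 0.1). The ratio of Bop1 to Wdr12 overlapped between the groups (exact permutation p = 0.5).

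Nop2, a methyltransferase of the large-subunit RNA, had 100.8, 91.1 and 107 CPM in Dox mice, against 185, 161 and 169.7 CPM in untreated mice. It fell by 0.79 ± 0.08 on the log2 scale (edgeR adjusted p = 0.00023), with a wide gap between the groups. Ebna1bp2, an early large-subunit factor, had 106, 92.9 and 118 CPM in Dox mice, against 151, 141 and 151 CPM in untreated mice, the weakest result of this class at -0.48 ± 0.09 (edgeR adjusted p = 0.0029). Gnl3, the nucleolar GTPase nucleostemin, had 129, 108 and 125 CPM in Dox mice, against 271, 221 and 205 CPM in untreated mice. It fell by 0.95 ± 0.12 (edgeR adjusted p = 0.00048), the largest fall of the class, and Nop16 followed at 0.90 ± 0.09 (0.00023). Ppan, Ftsj3, Rrs1 and Nip7 fell by 0.57 to 0.74 log2 units.

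The related GTPase gene Gnl3l, outside the 47, had 167, 149 and 167 CPM in Dox mice, against 98.7, 88.9 and 97.2 CPM in untreated mice. It rose by 0.76 ± 0.08 on the log2 scale (edgeR adjusted p = 0.00018), so Gnl3 and Gnl3l lay on opposite sides of the untreated mice in all 3 Dox mice. Reads that match both genes, if any, could have been split or lost.

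The 4 nucleolar proteins of several steps all fell, at a median of -0.77 log2 units. Mybbp1a, a nucleolar partner of the polymerase I and processing machinery, had 386, 372 and 448 CPM in Dox mice, against 767, 706 and 709 CPM in untreated mice, or -0.86 ± 0.08 on the log2 scale (edgeR adjusted p = 0.00018). Ncl, encoding nucleolin, an RNA-binding protein of the precursor, had 2031, 1708 and 2197 CPM in Dox mice, against 3552, 3194 and 2997 CPM in untreated mice, or -0.71 ± 0.11 on the log2 scale (edgeR adjusted p = 0.00098). Npm1, encoding the histone chaperone nucleophosmin, had 486, 395 and 555 CPM in Dox mice, against 932, 826 and 795 CPM in untreated mice, or -0.83 ± 0.13 on the log2 scale (edgeR adjusted p = 0.0013). In Mybbp1a, Ncl and Npm1 alike, Dox mouse 2 was lowest and Dox mouse 3 highest of the treated mice, and untreated mouse 1 was highest of all. Ddx21, a helicase that acts on ribosomal RNA and its snoRNAs, had 431, 387 and 456 CPM in Dox mice, against 737, 649.6 and 583 CPM in untreated mice, and fell by 0.63 ± 0.10 (edgeR adjusted p = 0.0013).

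Many of the 47 genes ranked the mice of a group alike. Their summed level was 7700.05, 7026 and 8349.8 CPM in Dox mice 1, 2 and 3, against 13277, 12171 and 11730.3 CPM in untreated mice 1, 2 and 3. Dox mouse 2 was the lowest of the Dox mice for 31 of 47 genes and Dox mouse 3 the highest for 37, where these mice held those places for 36.7% and 32.9% of all genes tested. Among untreated mice, mouse 1 was highest for 32 of 47 genes (38.1% of all genes tested) and mouse 3 lowest for 28 (40.6%). The genes share the scaling factor of each library, so these counts are not 47 separate observations. The median CV between mice was 8.05% in the Dox group and 5.07% in the untreated group. Fold changes computed from run 1 and run 2 alone differed by a median of 0.02 log2 units and by at most 0.11, for Wdr12. Myc, the regulator named above, had 113, 151 and 172 CPM in Dox mice, against 363, 340.2 and 392 CPM in untreated mice (log2 fold change -1.33 ± 0.15, edgeR adjusted p = 0.00044). Myc was lowest of the Dox mice in mouse 1 and highest of the untreated mice in mouse 3, unlike most of the 47 genes. Like most of them, it was highest of the Dox mice in mouse 3.

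**Figure D3:**
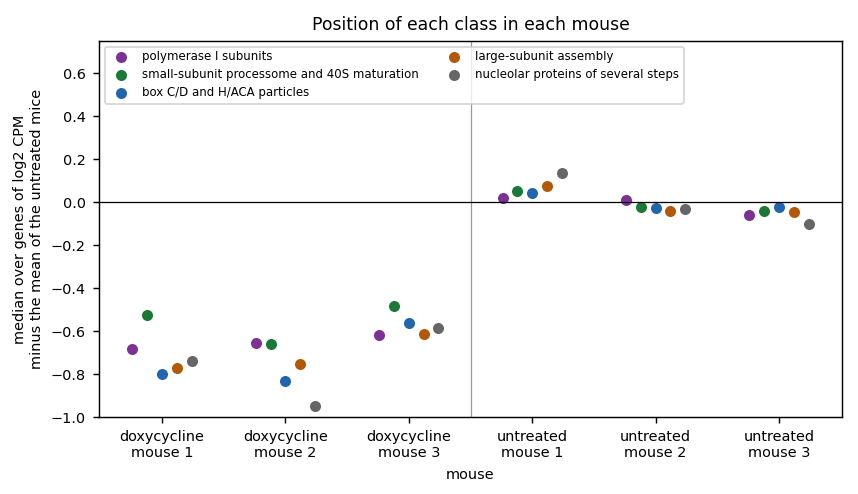
Median over the genes of each step of log2 CPM minus the mean of the untreated mice, for each mouse. Every class is below 0 in the 3 Dox mice, from -0.48 for the small-subunit genes in mouse 3 to -0.94 for the nucleolar proteins in mouse 2, and between -0.10 and 0.13 in the 3 untreated mice.

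Promoter sequence was examined because nearly all of the genes changed in the same direction. RefSeq promoters of GRCm38.p6 (250 bases before and 50 after a start site) were matched for 40 of the 47 genes, in 42 promoters; Utp6, Npm1, Rrs1, Rrp12, Fbl, Bop1 and Wdr36 were not matched. A pair of motifs was searched, each on both strands: the palindromic E-box CACGTG, which Myc with its partner Max is known to bind, and TGGGAA, a core motif of Ikaros. The E-box was in 8 of 42 promoters (19.05%), against 7.15% of all 32851 promoters and 9.94% of the 12512 promoters of genes tested. In the 250 bases before the start site alone it was in 3 of 42 promoters (7.14%), against 8.25% of the promoters of genes tested, so the higher share was due to matches that reach into the 50 bases after the start. The 8 genes are shown here to let their sites be compared. Each line is on the gene's own strand, 5′ to 3′, with the E-box in capitals, and is cut where the promoter table ends.
Imp4: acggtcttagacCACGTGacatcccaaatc
Nop2: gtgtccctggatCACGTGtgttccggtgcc
Utp18: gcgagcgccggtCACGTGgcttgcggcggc
Pes1: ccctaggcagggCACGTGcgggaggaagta
Wdr43: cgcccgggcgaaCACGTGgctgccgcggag
Tsr1: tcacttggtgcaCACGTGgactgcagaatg
Utp20: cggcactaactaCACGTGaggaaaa
Mybbp1a: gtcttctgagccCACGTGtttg
These sites lie at chr1:34439696-34439725 (Imp4, + strand), chr6:125131811-125131840 (Nop2, +), chr11:93885769-93885798 (Utp18, -), chr11:3963965-3963994 (Pes1, +), chr17:71616220-71616249 (Wdr43, +), chr11:74898092-74898121 (Tsr1, +), chr10:88826765-88826789 (Utp20, -) and chr11:72441355-72441376 (Mybbp1a, +). The first base of the E-box is 121, 60 and 20 bases before the start site in Imp4, Nop2 and Utp18, and is base 3, 18, 25, 38 and 41 from the start site in Pes1, Wdr43, Tsr1, Utp20 and Mybbp1a. Positions are counted from the start site of the promoter table, which in Wdr43 lies inside the annotated gene, where the E-box begins at base 55.

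Strongly and weakly changed genes are among the 8: Utp20 fell by 0.81 log2 units and Imp4 by 0.23. The median log2 fold change was -0.67 for the 8 genes with an E-box and -0.67 for the 32 matched genes without one. The motif TGGGAA was in 15 of 42 promoters (35.7%), against 25.6% of all promoters and 22.95% of those of genes tested, and the medians were -0.66 for the 15 genes with it and -0.69 for the 25 without. Its letters can share 2 bases with the E-box. Polr1b, the gene with the largest fall, holds 1 TGGGAA on the other strand, read as TTCCCA, 15 bases before the start site of the promoter table, within chr2:129100969-129100998 (+ strand), and no CACGTG. Counted from the gene start given above, which lies further upstream, the same match begins at base 12 of Polr1b.
Polr1b: gaggaactacatTTCCCAgaaggccacggg
The whole stretch before the start site is given for 2 genes with an upstream E-box, 1 of the large-subunit and 1 of the small-subunit set, at chr6:125131633-125131882 (Nop2, +) and chr11:93885767-93886016 (Utp18, -), again with the E-box in capitals.
Nop2: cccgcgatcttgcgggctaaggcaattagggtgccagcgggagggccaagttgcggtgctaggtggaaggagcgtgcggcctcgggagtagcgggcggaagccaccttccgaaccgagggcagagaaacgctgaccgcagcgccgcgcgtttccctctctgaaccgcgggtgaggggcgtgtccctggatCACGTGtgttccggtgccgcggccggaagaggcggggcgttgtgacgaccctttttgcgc
Utp18: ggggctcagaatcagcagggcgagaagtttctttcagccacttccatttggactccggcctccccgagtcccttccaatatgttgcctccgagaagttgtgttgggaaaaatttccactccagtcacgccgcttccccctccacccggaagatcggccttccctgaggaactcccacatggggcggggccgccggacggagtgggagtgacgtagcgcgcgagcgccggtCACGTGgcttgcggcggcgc
A match describes these letters and does not show binding.

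Some of the 47 genes have other genes of the same pathway within their bounds, and whether these lie in introns was not examined. GENCODE places snoRNA genes, on the same strand, inside 8 of them: Ncl, Nop56, Nop58, Dkc1, Gnl3, Ppan, Wdr43 and Tsr1. All 8 fell, and their median log2 fold change was -0.71, against -0.66 for the other 39. Among all 219 tested genes with a snoRNA gene inside, 98 fell (44.7%, against 25.2% of all genes tested) and 31 rose (14.2%, against 24.8%). Their median was -0.22. The snoRNAs themselves were not analysed here. Exons of 17 of the 47 genes overlap another annotated gene on the other strand, among them Heatr1, Nop56, Dkc1, Bop1 and Mybbp1a, and 0 overlap one on the same strand. The strand setting of the counts is not given in the sources used here, so reads of such neighbours could be included.

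Beyond the 47, ribosome biogenesis factors were mostly lower as well, with a smaller median. Of 102 further factors, 75 fell (73.5%, against 25.2% of all genes tested) and 3 rose (2.94%, against 24.8%), and the median log2 fold change was -0.39. The 102 include the 10 polymerase I subunits and initiation factors described above, with Ttf1 among the 3 that rose. Among 36 small-subunit factors 27 fell and 0 rose (median -0.37), led by Rcl1, a processome protein, at -0.83 ± 0.09, Pwp2 at -0.57 ± 0.07 and Utp4 at -0.59 ± 0.07 (edgeR adjusted p = 0.00024, 0.00039 and 0.00039). Among 11 snoRNP assembly factors 9 fell and 0 rose (median -0.48). Naf1, which brings H/ACA proteins to nascent RNA, fell by 1.03 ± 0.11 log2 units, to 28.0 ± 3.72 CPM in Dox mice against 57.1 ± 2.75 CPM in untreated mice (edgeR adjusted p = 0.00020). Among 45 large-subunit factors 36 fell and 2 rose (median -0.42), with Rrp15 at -0.75 ± 0.07, Rrp1b at -0.87 ± 0.09 and Wdr18 at -0.79 ± 0.08 (edgeR adjusted p = 0.00015, 0.00018 and 0.00022). The 2 that rose were Gnl3l and Nop53, and Nop53 rose by only 0.19 ± 0.07 (edgeR adjusted p = 0.039), a call lost without Dox mouse 2 or 3 or any 1 untreated mouse, at 0.0730 to 0.151.

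The protein components of the cytosolic ribosome had smaller median falls than the factors that assemble it. Of 46 large-subunit ribosomal protein genes, 28 fell and 1 rose, and the median log2 fold change was -0.32. Of 32 small-subunit genes 23 fell and 0 rose, at a median of -0.31. The small-subunit count was 15 without Dox mouse 2 and 14 without untreated mouse 2, and the large-subunit count was 20 without Dox mouse 1. Rpl15 was the exception, at 44.0 ± 2.63 CPM in Dox and 24.1 ± 0.58 CPM in untreated mice (log2 fold change 0.87 ± 0.08, edgeR adjusted p = 0.00012). Ribosomal protein genes have many near-identical pseudogenes, so their levels are uncertain. The difference between these medians and that of the 47 genes was not tested.

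**Figure D4:**
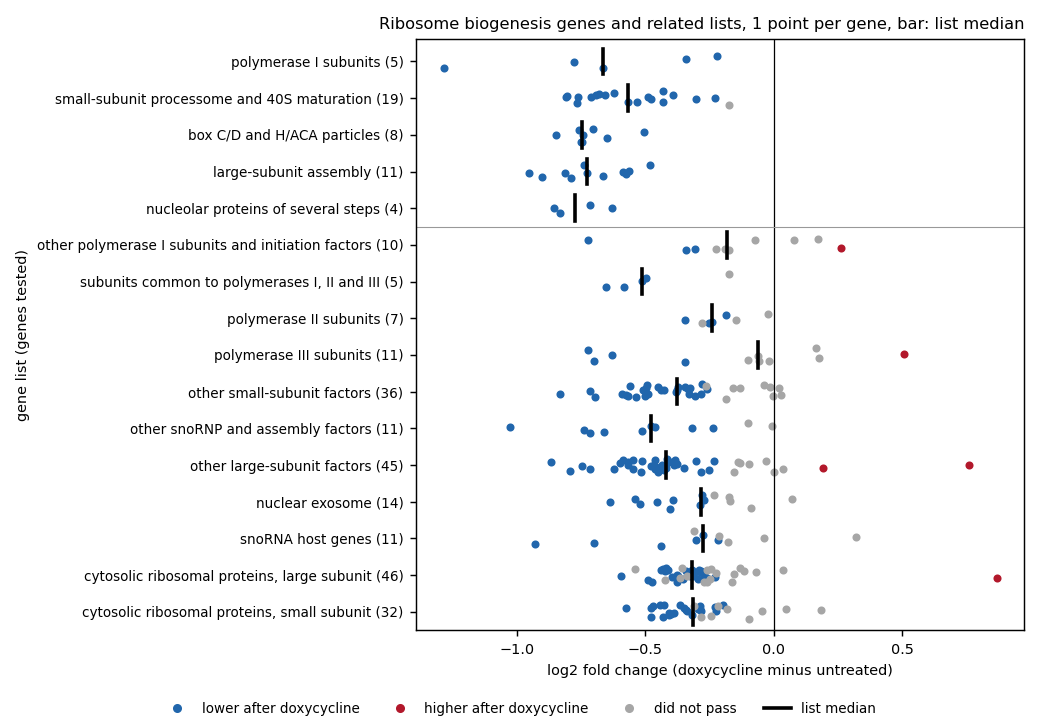
Log2 fold change (Dox minus untreated) of each tested gene in the 5 classes of the 47 genes (top) and in related lists, coloured by the edgeR call, with list medians as bars. The class medians lie between -0.57 and -0.77, those of the other assembly factor lists between -0.37 and -0.48, and those of the ribosomal protein lists at -0.32 and -0.31.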

How the data were processed

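The data are RNA-seq counts of ALL101 leukemia cells, isolated by FACS per the labels' protocols, from spleens of 3 doxycycline-treated and 3 untreated mice. The authors deposited raw counts per Entrez gene with a gene length. Per the submitters' processing notes, CASAVA 1.8.1, featureCounts and mm10 were used. No source used here names the aligner, annotation, strand setting or treatment of multiple matches. The whole-series table equalled the per-library tables in 12 of 12 libraries. A RefSeq table (GRCm38.p6) gave symbols for 25275 of 27179 identifiers.

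Runs were summed per mouse; runs of an RNA differed by about sampling noise (mean chi-square per gene 1.01 to 1.04), mice of a group by more (9.70 to 76.1). Mice are the replicates, all of 1 leukemia. Groups were compared in edgeR 4.0.16 (R 4.3.3): filterByExpr, TMM factors, a robust quasi-likelihood F test with no block, and Benjamini-Hochberg adjustment over 13134 genes at 0.05. Each SE was derived from the log2 fold change and its F statistic. RPKM divides CPM by the deposited length. Ratios were compared by exact two-sided permutation tests. The edgeR, DESeq2 1.42.0 and limma 3.58.1 fits were tested on simulated data. At these totals 1 CPM is 29.9 to 44.9 counts, and this precision covers counting error only. CPM are relative to the library, so a shift common to all genes would not show.

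The 47 genes and the other lists were chosen with earlier results of these data known. Values in every mouse are given for all polymerase I subunits, for the 3 smallest p-values and the largest in each other class, for genes that did not pass or lost their call without a mouse, and for Gnl3, Gnl3l, Ikzf1 and Myc; Gnl3 and Gnl3l were given in full after their values were seen. Of each other list, up to 3 genes with the smallest p and up to 2 against the majority are named; the Taf1 genes and Ubtf were named after their values were seen. Protein sequence features were not analysed here. Some genes of the lists are counted but not reported here by name.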

Additional observations from a re-analysis of the deposited data

How the results depend on the processing

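The 47 genes were refitted in 18 other settings: RLE, upper-quartile or total-count scaling, no filter or over 1 CPM in 3 mice, DESeq2, limma-voom with quality weights, edgeR without robust estimation, a block for replicate number, run 1 or run 2 only, each mouse left out, and untreated mouse 3 with Dox mouse 2 left out. Every log2 fold change stayed negative in all 18, and 44 members kept their call in each; the exceptions were Polr1d, Imp4 and Utp3. The number of members lower was 44 to 47 and the number higher 0. Over all genes, 2452 to 3162 were lower and 2417 to 3136 higher when 1 mouse was left out. For the 102 factors outside the 47, 66 to 73 were lower and 1 to 2 higher with 1 mouse left out, and 1 was higher without untreated mouse 3 and Dox mouse 2 together. The labels do not say whether equal replicate numbers mark pairs. Correlations of same-numbered deviations were 0.156, -0.012 and -0.103, and those of other pairings ran from -0.191 to 0.168. With 3 mice per group these values cannot decide whether the mice were paired. With the block 46 members, 3156 of all genes and 73 of the other factors were lower. Of the 7 polymerase II subunits, 2 were lower with the block, against 4 with no block. In simulated data, where far fewer genes changed than here, edgeR, DESeq2 and limma-voom all gave the right sign to the changes they called. The run was set to stop otherwise, so this checks the code only and does not bear on the results. The scaling choices moved the median of all genes by under 0.1 log2 units. Leaving out a mouse reduces the samples; no other cause was tested.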

Other observations

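The nuclear exosome, which trims and degrades ribosomal RNA precursors, was also lower in part. Of 14 of its genes 9 fell and 0 rose, and the median log2 fold change was -0.28. Dis3, a catalytic subunit, was at 88.03 ± 4.13 CPM in Dox mice and 128 ± 3.63 CPM in untreated mice (SD, n = 3 each; log2 fold change -0.54 ± 0.07, edgeR adjusted p = 0.00040). The core subunit genes Exosc5 and Exosc1 fell by 0.64 ± 0.10 and 0.52 ± 0.08 on the log2 scale (edgeR adjusted p = 0.0012 and 0.0013). Of 11 noncoding or small host genes of snoRNAs, 6 fell and 0 rose, with a median of -0.28. Snhg4 fell by 0.93 ± 0.10 and Snhg15 by 0.70 ± 0.12 (edgeR adjusted p = 0.00030 and 0.0017), and Gas5 fell to 118 ± 13.7 CPM in Dox mice, against 159.9 ± 4.52 CPM in untreated mice (0.0040). Without untreated mouse 3, 1 of these 11 rose, and without Dox mouse 1, untreated mouse 2 or untreated mouse 3 the number that fell was 4.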
